A study of Mus musculus with 8 samples.

Results

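The class 3 semaphorins are secreted guidance proteins, and the plexins are the transmembrane receptors through which they signal. The lung arrays of 8 mouse pups were read for 9 of these genes, the ligands Sema3a, Sema3b, Sema3c, Sema3d, Sema3e and Sema3f and the receptors Plxna1, Plxna2 and Plxnd1. Members were the probe sets that the platform annotation gives to one of these symbols alone, so that 9 of 18193 genes and 24 of 45037 probe sets were members, controls left aside. Of these, 17 belonged to the 6 ligands and 7 to the 3 plexins, and 22 of the 24 were bright enough to be tested.

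All pups were of the FVB/N strain, and the genotype field, alike for all 8, gives an inducible FGF18 transgene targeted to the lung (SP-C-rtTA and (teto)7-FGF18). SP-C is surfactant protein C, whose promoter restricts rtTA to epithelial cells of the distal lung, and doxycycline lets rtTA turn on the FGF18 cassette. The control pups were D02, D40, D50 and D58 and the case pups D04, D34, D48 and D52, with 1 array each. The design text describes pairs of single and double transgenic littermates from 4 litters, selected on transgene induction, whereas the titles tie no pup to a litter. The sources used here give neither the age of the pups nor their time on doxycycline.

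Most class 3 semaphorins bind a neuropilin, Nrp1 or Nrp2, which recruits a plexin of the A group, and the plexin changes the cytoskeleton and adhesion of the receiving cell. Sema3e differs in that it binds plexin D1 directly, a receptor best known from endothelium. In mouse fetal lung explants Sema3a restrains airway branching, whereas Sema3c and Sema3f promote it, and Sema3d guides the veins of the lung in mouse embryos.

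The state of the transgene and of individual arrays touches every result. Fgf18 itself had a log2 intensity of 7.05, 7.76, 7.11 and 7.07 in the controls (in the order D02, D40, D50, D58, kept throughout), and of 10.82, 12.09, 9.82 and 7.66 in the cases (in the order D04, D34, D48, D52). The library labelled Case D52 thus lay at the control level of the gene on which pups were chosen, and the case against control values below are also given without it. Over all 8 pups Fgf18 differed by 2.85 log2 (exact permutation test, two-sided, 70 arrangements, p = 0.0571), which is no independent finding, and by 3.66 without that library. Case D34, with the highest Fgf18, stood apart in many genes. Its median distance from the control mean over 27022 tested probe sets was 0.16 log2, against 0.07 to 0.13 in the other cases. Arrays had median log2 intensities of 7.02 to 7.12, and their small number sets the precision. By Xist and the Y-linked gene Eif2s3y, females were D02, D04 and D34. In whole lung RNA, fewer cells of a type and less RNA per cell cannot be told apart. The lung markers were bright, with the surfactant gene Sftpc at 14.48 to 14.65 and the endothelial gene Cdh5 at 12.17 to 12.48.

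No member differed between cases and controls past the threshold. None of the 22 tested probe sets had a limma Benjamini-Hochberg adjusted p below 0.05, against 0.0074% of all probe sets (2 of 27022, both for Abca3, the lipid transporter of type 2 cells). Abca3 read 11.34 to 11.56 in controls and 10.27 to 10.65 in cases, with the lowest level in the library labelled Case D52. At an unadjusted p below 0.05 there were 3 of 22, a pair of probe sets for Sema3a and 1 for Sema3d, or 13.6% of members against a background of 5.96%. The groups overlapped in all 22, where 3.73% of all probe sets did not overlap. The pattern among pups was uneven. Sema3a lay higher in cases and Sema3d lay lower in 3 of the 4. Sema3b, Sema3e and Plxna2 stood apart mainly in D34, while Sema3f and Plxnd1 showed little difference.

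**Figure D1:**
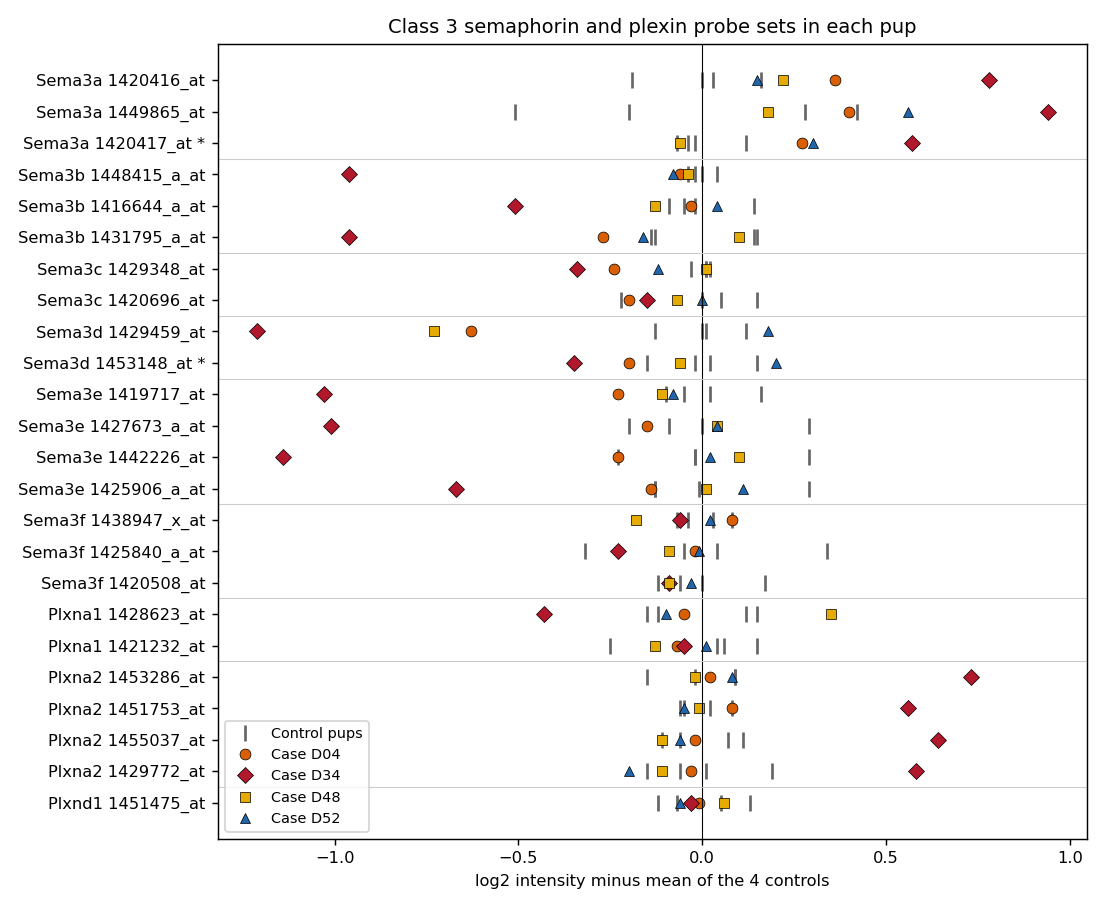
Log2 intensity minus the mean of the 4 controls (x axis) for each of the 24 probe sets of the 9 genes (y axis), with grey ticks for control pups and a coloured symbol for each case pup. Asterisks mark the 2 probe sets too dim to be tested. D34 (diamonds) lies farthest out for Sema3b, Sema3e and Plxna2, and D04, D34 and D48 lie below the controls for Sema3d probe set 1429459_at.

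Sema3a, Sema3d and Sema3e are the ligands with the largest differences. They lie next to each other on mouse chromosome 5, apart from a few predicted and Speer genes, so their promoters are shown to set these 3 neighbours, with differing values, beside each other. The sequences are RefSeq's, in build GRCm38.p6, on the plus strand, each running from 250 bases before to 50 bases after a start site. They span chr5:12382916-12383215 for Sema3d, chr5:13396534-13396833 for Sema3a and chr5:14025026-14025325 for Sema3e. Capitals mark GGAAG, a core bound by ETS factors, of which Etv4 and Etv5 are targets of FGF signalling, or its reverse complement CTTCC.
Sema3d: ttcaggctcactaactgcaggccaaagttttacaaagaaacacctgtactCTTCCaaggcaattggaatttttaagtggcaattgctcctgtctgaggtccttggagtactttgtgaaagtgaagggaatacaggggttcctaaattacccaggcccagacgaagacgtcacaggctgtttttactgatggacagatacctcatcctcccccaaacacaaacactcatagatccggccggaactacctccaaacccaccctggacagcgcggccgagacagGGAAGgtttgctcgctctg
Sema3a: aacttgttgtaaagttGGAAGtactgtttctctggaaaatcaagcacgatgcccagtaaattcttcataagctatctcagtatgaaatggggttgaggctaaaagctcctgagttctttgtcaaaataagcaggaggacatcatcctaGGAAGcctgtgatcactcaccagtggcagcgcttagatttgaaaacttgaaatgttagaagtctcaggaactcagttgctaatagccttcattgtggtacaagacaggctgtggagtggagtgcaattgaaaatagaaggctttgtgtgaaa
Sema3e: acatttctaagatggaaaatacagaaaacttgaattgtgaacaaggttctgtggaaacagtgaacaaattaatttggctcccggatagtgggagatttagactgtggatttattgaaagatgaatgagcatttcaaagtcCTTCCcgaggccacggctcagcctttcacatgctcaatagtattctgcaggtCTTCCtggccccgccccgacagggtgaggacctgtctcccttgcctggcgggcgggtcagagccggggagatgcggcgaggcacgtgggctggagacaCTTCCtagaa
The core occurred 2 times in the Sema3d window, 2 times in that of Sema3a and 3 times in that of Sema3e. Of 32851 promoter windows of the same length, 71.4% hold it at least once, so a match is common. Of the 9 genes, 6 had an entry in the table, and the windows of Sema3c and Plxna2 held no match while that of Plxnd1 held 2. The GC content was 49.7% for Sema3d, 41.3% for Sema3a and 50.7% for Sema3e, against a median of 52.7% over all windows. Other protein-coding genes between Sema3d and Sema3c numbered 18 on this stretch, and the 4 of them that were tested (Speer3, Cacna2d1, Hgf and Speer4f1) differed by -0.14 to 0.02 log2 (-0.15 to 0.01 without the library labelled Case D52), with none past the threshold. Speer3 and Speer4f1 were read at probe sets of a design that may bind related transcripts. Speer3 read 7.10 to 7.14 in controls and 6.82 to 7.09 in cases, without overlap, as did 3.73% of all tested probe sets. This set of neighbours was chosen after values were seen.

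Sema3a, the ligand that restrains branching and acts through Nrp1 and A-type plexins, was the one ligand among the members that lay higher in cases. At probe set 1420416_at its log2 intensity was 8.97, 8.75, 9.10 and 8.94 in controls, and 9.30, 9.72, 9.16 and 9.09 in cases. Cases D04, D34 and D48 lay above each control, and the library labelled Case D52 lay just under control D50. The means were 8.94 ± 0.15 (SD, n = 4) and 9.32 ± 0.28 (SD, n = 4), a difference of 0.38 log2 or 1.30-fold (95% interval 0.08 to 0.68, limma adjusted p = 0.786).

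The second tested probe set for Sema3a, 1449865_at, read 8.68, 7.89, 8.82 and 8.20 in the controls and 8.80, 9.34, 8.58 and 8.96 in cases. Here the controls ran from 7.89 to 8.82 and overlapped the cases, since D04 and D48 lay below control D50. The difference was 0.52 log2 (95% interval 0.05 to 1.0, limma adjusted p = 0.786). Another, dim probe set, 1420417_at, read 6.05 to 6.24 in controls and 6.39, 6.69, 6.06 and 6.42 in cases, which was below the brightness limit of 6.51 in its mean and was not tested. On all 3 probe sets D34 was the highest of the 8 pups. Once the library labelled Case D52 was dropped, the difference at 1420416_at was 0.45 (limma adjusted p = 0.261), and at 1449865_at it was 0.51 (adjusted p = 0.460). Without D34 it was 0.24 at the first probe set, over 1.5 times smaller than with it, and 0.38 at the second.

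Sema3d, which steers endothelial cells of the lung veins, had the largest difference of any member probe set. At probe set 1429459_at it read 7.24, 7.25, 7.11 and 7.36 in controls. In the cases it read 6.61 in D04, 6.03 in D34 and 6.51 in D48, but 7.42 in the library labelled Case D52. The 3 cases with high Fgf18 lay below each control, and the library labelled Case D52 lay above each control. Over all pups the means were 7.24 ± 0.10 (SD, n = 4) and 6.65 ± 0.57 (SD, n = 4), a difference of -0.60 log2 or 1.51-fold (95% interval -1.11 to -0.08, limma adjusted p = 0.786).

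Once the library labelled Case D52 was dropped, Sema3d differed by -0.85 log2, or 1.81-fold (95% interval -1.16 to -0.55), and still missed the threshold (limma adjusted p = 0.0904). With D34 left out as well, an alternative chosen after values were seen, the difference was -0.68 and passed (limma adjusted p = 0.0414). That was 1 of 22 members, against 0.104% of all probe sets under the same setting. With D34 left out alone the difference was -0.39 (adjusted p = 0.959). Levels of 6.03 and 6.51 in D34 and D48 lie at or below the brightness limit, and how well the array resolves such dim levels was not measured. The second Sema3d probe set, 1453148_at, was dimmer and was not tested. It read 6.64, 6.47, 6.34 and 6.51 in controls and 6.29, 6.14, 6.43 and 6.69 in cases, with the groups overlapping and D34 the lowest.

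The genes whose levels were most like those of Sema3d over the 8 pups were Dcn, which encodes the proteoglycan decorin of fibroblasts, and Bace2 (Pearson r = 0.994 and 0.991). Dcn read 11.11, 11.23, 10.93 and 11.23 in the controls and 9.78, 8.75, 9.61 and 11.69 in cases. The 8 pups had the same order in both genes (Spearman rho = 1). Dcn differed by -1.16 log2 over all pups (limma adjusted p = 0.786) and passed at -1.74 without the library labelled Case D52 (adjusted p = 0.036). Since the pups fall into 3 with low and 5 with high levels, r describes mainly that gap, and it is given as a measure of likeness alone. Without D34 and D48 r was 0.984 for Dcn. D04 was then the only pup with low levels, so this value still describes mainly that gap.

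**Figure D2:**
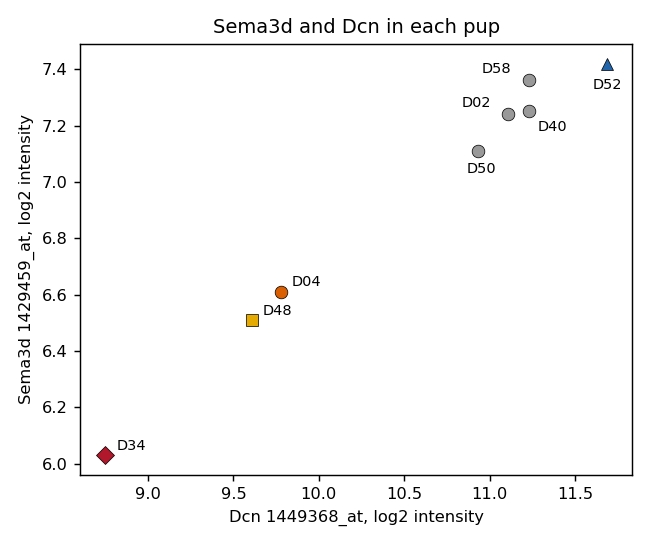
Log2 intensity of Dcn (x axis) against Sema3d (y axis), 1 point per pup, with controls as grey circles and cases in colour. D34 is lowest in both at 8.75 and 6.03, and D52 is highest in both at 11.69 and 7.42.

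Median levels of several marker lists lay lower in the same 3 cases as Sema3d. The smooth muscle list and the club and ciliated list, both given below, also lay lower in these cases. Lung fibroblast markers (8 of 8 tested) had a median shift from the control mean of -0.29, -0.41, -0.20 and -0.03 log2 in the 4 cases. Their summed intensity was 42198 to 47995 in controls and 35675 to 43229 in cases. The list's members differed in direction, with 5 below 0 and 3 above. The matrix genes Dcn and Lum were at -1.16 and -1.39 log2 and the fibroblast receptor gene Pdgfra at 0.56. Fbln1 was at 0.29 and Tcf21 at 0.05. The values of Dcn, Lum and Pdgfra moved with single pups. Without D34 they were -0.76, -0.91 and 0.10, and without the library labelled Case D52 they were -1.74, -2.02 and 0.85. In Dcn and Lum, D04, D34 and D48 each lay below the lowest control. Pdgfra read 10.75, 12.58, 11.15 and 10.32 in cases, against 10.58 to 10.73 in controls. D34 lay farthest out, but D04 and D48 also lay above each control, and the library labelled Case D52 lay below each. Without D34 and that library the Pdgfra difference was 0.31. Mesothelial markers (5 of 5 tested), the lining of the lung, shifted by -0.66, -1.28, -0.53 and 0.10, with sums of 2416 to 3798 in controls and 1425 to 3030 in cases. Heart and skeletal muscle markers (8 of 9 tested, with Myh3 below the brightness limit) shifted by -0.61, -1.60, -0.47 and 0.18, with sums of 15886 to 21610 in controls and 4567 to 20605 in cases. No marker was listed at 0. The part of these cells in the Sema3d values was not tested.

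Sema3e, the ligand of plexin D1, lay lower in D34 at all 4 of its probe sets and near the controls in the other cases. At the brightest, 1419717_at, it read 10.49, 10.37, 10.63 and 10.42 in controls and 10.24, 9.44, 10.36 and 10.39 in cases. D34 lay 1.04 log2 below the control mean, or 2.06-fold. D04, at 10.24, also lay below the lowest control at 10.37, and D48 and the library labelled Case D52 lay beside control D40. The means were 10.47 ± 0.11 (SD, n = 4) and 10.11 ± 0.45 (SD, n = 4), which gave a difference of -0.37 log2 (95% interval -0.79 to 0.05, limma adjusted p = 0.786).

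D34 was again the lowest pup at the other Sema3e probe sets. D34 lay -1.01, -1.14 and -0.67 log2 from the control mean at 1427673_a_at, 1442226_at and 1425906_a_at, where case minus control was -0.27, -0.32 and -0.18 (limma adjusted p from 0.805 to 0.828). Without D34 the differences shrank to -0.15 at the brightest probe set and to -0.02, -0.04 and -0.01 at the others, so D34 decided the value. Once the library labelled Case D52 was dropped, the 4 gave -0.46, -0.37, -0.43 and -0.27 (limma adjusted p from 0.415 to 0.564). Sema3a and Sema3e are both used as markers of alveolar type 1 cells, the flat cells of gas exchange, but in D34 they lay on opposite sides of the controls. Other type 1 markers (10 of 10 tested) shifted by -0.10, -0.49, -0.08 and 0.00 in the cases, with sums of 42555 to 44754 in controls and 32583 to 43672 in cases. Their part in the Sema3e values was not tested.

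Sema3b, a semaphorin known in human as a candidate tumour suppressor gene of lung cancer, showed the same dependence on 1 pup. At 1448415_a_at it read 8.36, 8.30, 8.28 and 8.32 in controls and 8.26, 7.36, 8.28 and 8.24 in cases. The controls lay between 8.28 and 8.36, D34 was 1.94-fold below their mean, and the other 3 cases lay at or just under the lowest control. Case minus control was -0.28 log2 (95% interval -0.68 to 0.12, limma adjusted p = 0.788), and -0.06 without D34. The other probe sets, 1416644_a_at and 1431795_a_at, gave -0.15 and -0.33 log2 (limma adjusted p = 0.806 and 0.786), again with D34 the lowest of the 8 pups at 6.97 and 6.06. Without D34 they gave -0.03 and -0.11. The 3 probe sets gave -0.35, -0.22 and -0.38 without the library labelled Case D52 (limma adjusted p from 0.515 to 0.533). Markers of club and ciliated cells (6 of 7 tested, with Dnah5 below the brightness limit) shifted by -0.28, -0.68, -0.33 and -0.11, with sums of 39660 to 41711 in controls and 19874 to 38659 in cases. Their part in the Sema3b values was not tested.

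Sema3c, which promotes branching and outflow tract development, read 11.04, 11.04, 11.05 and 11.00 in controls at 1429348_at and 10.79, 10.69, 11.04 and 10.91 in cases. The controls were nearly equal, 3 cases lay below them and D48 lay among them. The difference was -0.17 log2, or 1.13-fold (95% interval -0.35 to 0.01, limma adjusted p = 0.786), and -0.11 without D34. At the dimmer 1420696_at it was -0.10 (adjusted p = 0.826), with cases at 8.63 to 8.83 inside the control range of 8.61 to 8.98, and it ran from -0.17 without D58 to -0.05 without D50. The values were -0.19 and -0.14 without the library labelled Case D52 (limma adjusted p = 0.469 and 0.612).

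Sema3f, the Nrp2 ligand that promotes branching in explants, showed no difference beyond the spread between pups. At 1438947_x_at, a probe set of a design that may bind related transcripts, controls read 10.02, 10.07, 9.92 and 9.95 and cases 10.07, 9.93, 9.81 and 10.01. The 95% interval of the difference ran from -0.20 to 0.14 log2, and at 1425840_a_at and 1420508_at from -0.37 to 0.19 and from -0.24 to 0.09 (limma adjusted p from 0.842 to 0.935). Dropping the library labelled Case D52 gave differences of -0.05, -0.12 and -0.09 (adjusted p from 0.716 to 0.839). Sema3b and Sema3f lie close together on chromosome 9, with 3 other protein-coding genes between them. In D34, Sema3b lay 0.95 log2 below the control mean at its brightest probe set and Sema3f 0.05 below.

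**Figure D3:**
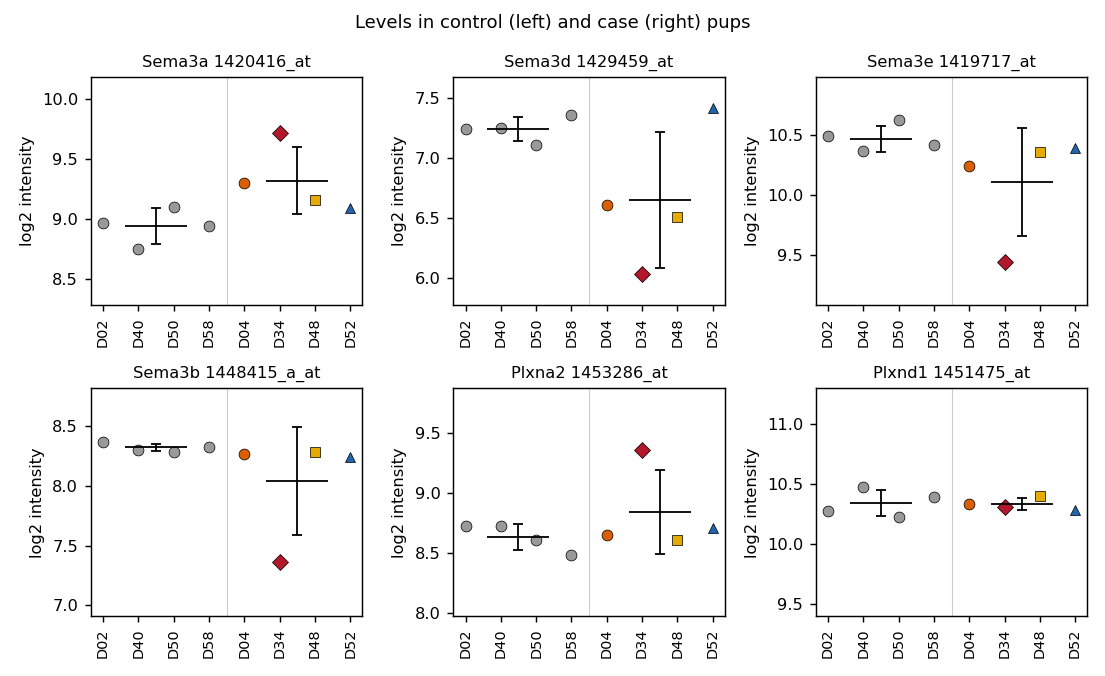
Log2 intensity (y axis) of 6 probe sets in each pup (x axis), controls on the left and cases on the right, with bars for the group mean ± SD and the same height of axis in each panel. D34 is low for Sema3d (6.03), Sema3e (9.44) and Sema3b (7.36) and high for Sema3a (9.72) and Plxna2 (9.36), while all pups lie close together for Plxnd1.

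The receptors differed less. Plxna2, a partner of neuropilins and a receptor of class 6 semaphorins, was highest in D34 at all 4 probe sets. At 1453286_at it read 8.72, 8.72, 8.61 and 8.48 in controls and 8.65, 9.36, 8.61 and 8.71 in cases. D34 was 1.66-fold above the control mean, and the other 3 cases lay inside the control range. Case minus control was 0.21 log2 (95% interval -0.13 to 0.55, limma adjusted p = 0.803). At 1451753_at, 1455037_at and 1429772_at it was 0.15, 0.11 and 0.07 (limma adjusted p from 0.822 to 0.935). Without D34 these 4 differences were 0.03, 0.01, -0.06 and -0.11, so the direction turned at the last pair. Dropping the library labelled Case D52 gave 0.25, 0.21, 0.17 and 0.15 (limma adjusted p from 0.560 to 0.745).

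Plxna1, the A-type plexin that serves Sema3a with Nrp1, read 10.64, 10.91, 10.67 and 10.94 in controls at 1428623_at and 10.74, 10.36, 11.14 and 10.69 in cases. Of the 8 pups D34 was the lowest and D48 the highest, so the cases spread to both sides of the controls. The difference was -0.06 log2 (95% interval -0.39 to 0.27, limma adjusted p = 0.939), and -0.06 at the dimmer 1421232_at (adjusted p = 0.893). Leaving D34 out turned the first of these to 0.07, and dropping the library labelled Case D52 gave -0.04 and -0.08 (adjusted p = 0.935 and 0.781). Plxnd1, the receptor of Sema3e, read 10.27, 10.47, 10.22 and 10.39 in controls and 10.33, 10.31, 10.40 and 10.28 in cases at its 1 probe set. All 4 cases lay inside the control range, and the difference was -0.01 log2 (95% interval -0.17 to 0.15, limma adjusted p = 0.982). It was 0.01 without the library labelled Case D52 (95% interval -0.18 to 0.19), so its sign depended on that library. Vascular endothelial markers, from the cells best known for Plxnd1 (12 of 12 tested), shifted by 0.00, -0.23, 0.04 and -0.06, with sums of 30288 to 33208 in controls and 27207 to 32459 in cases.

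**Figure D4:**
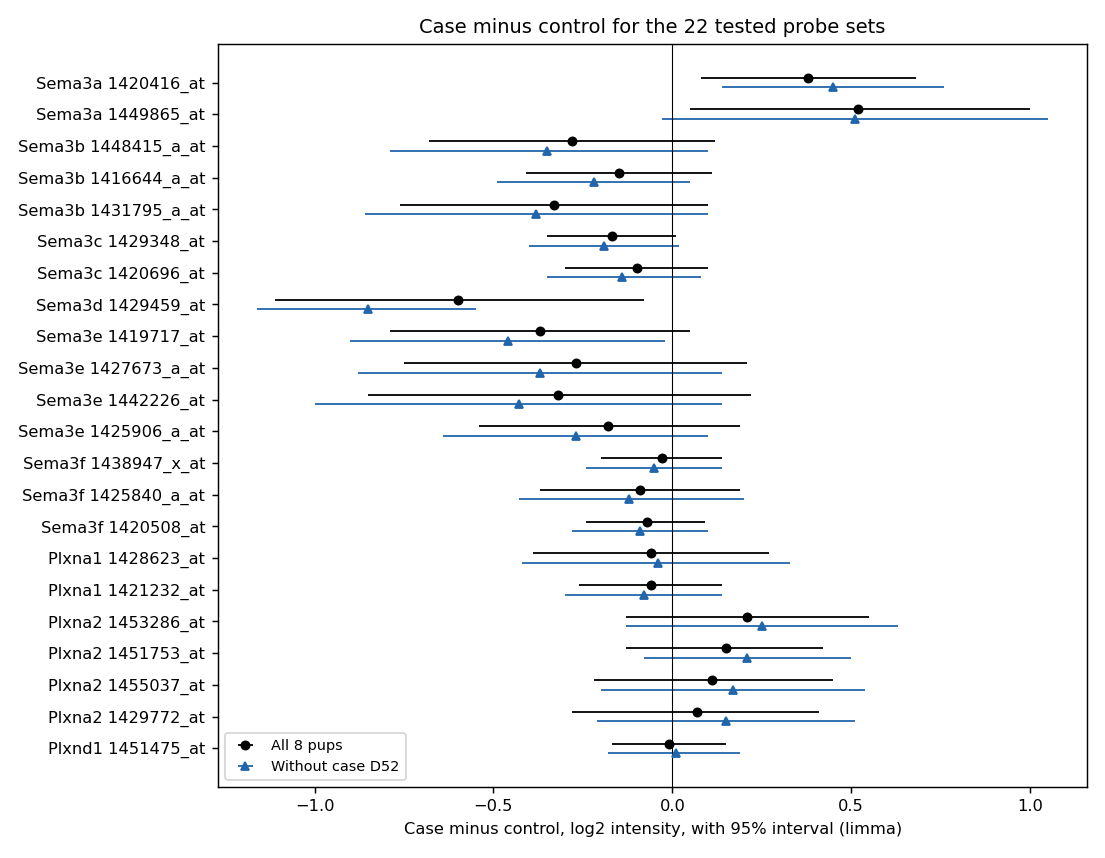
Case minus control in log2 intensity with its 95% interval from limma (x axis) for the 22 tested probe sets (y axis), over all 8 pups (black circles) and without case D52 (blue triangles). Sema3a lies above 0 and Sema3d below 0, and for Sema3d the interval without D52 runs from -1.16 to -0.55.

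As a group, the 15 tested semaphorin probe sets had a median difference of -0.17 log2, with 13 below 0 and 2 above, and the 7 plexin probe sets a median of 0.07, with 3 below and 4 above. The median over all 27022 was -0.01, and 14558 of them lay below 0. Several probe sets share a gene, so they are not independent. Once the library labelled Case D52 was dropped, the median was -0.22 for the semaphorins and 0.15 for the plexins, and none of the 22 passed the threshold, against 0.0555% of all probe sets. At an unadjusted p below 0.05 there were then 3 of 22 (Sema3a, Sema3d and Sema3e), where the background was 11.5%, and without D34 there was 1 (Sema3a), where it was 4.16%. Groups without the library labelled Case D52 did not overlap in 3 of 22, 1 probe set each of Sema3a, Sema3d and Sema3e, or 13.6% against a background of 12.4%, which is near it. Without D34 the median of the semaphorins was -0.04 and that of the plexins 0.00.

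D34 was then set beside the other pups, a count made after values were seen. It was the highest or lowest of the 8 pups in 16 of the 22 probe sets, where the background was 49.5%, and lay over 0.5 log2 beyond the nearest pup in 8, or 36.4% against 3.34%. Those 8 were 2 probe sets of Sema3b, 4 of Sema3e and 2 of Plxna2, so they stand for 3 genes. The median distance of the members from the control mean was 0.61 log2 in D34, against 0.07 to 0.10 in the other cases. The other cases were highest or lowest in fewer members, with 1 for D04 (background 14.1%), 2 for D48 (background 35.1%) and 2 for the library labelled Case D52 (background 18.6%). As a sign of RNA quality, the 3′ minus 5′ difference at Actb was 0.38 in D34 and 0.32 to 0.43 in the others, and at Gapdh it was -0.04 in D34 and -0.02 to 0.18 in the others.

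The neuropilins, which hold the ligand in the receptor complex, lay lowest in D34, and no probe set of either gene passed the threshold. Nrp1 at 1448943_at read 11.93, 11.82, 11.95 and 11.92 in controls and 11.79, 11.59, 11.91 and 11.79 in cases, a difference of -0.13 log2 (limma adjusted p = 0.786). Its other 3 probe sets gave -0.17, -0.26 and -0.22 log2. At 1448944_at, the one with -0.26, cases read 10.83, 10.53, 10.83 and 10.69 and all lay below the lowest control at 10.84 (limma adjusted p = 0.786). The groups overlapped at the other Nrp1 probe sets, and 3.73% of all tested probe sets did not overlap. Nrp2 at 1435349_at read 9.89, 9.91, 10.02 and 9.94 in controls and 9.82, 9.27, 9.87 and 9.92 in cases, and its 4 probe sets differed by -0.31 to -0.14 (limma adjusted p from 0.786 to 0.868). D34 was the lowest of the 8 pups at each of these 8 probe sets. Without D34 the 4 Nrp1 probe sets differed by -0.20 to -0.07 and those of Nrp2 by -0.19 to 0.01, and without the library labelled Case D52 by -0.25 to -0.14 and -0.36 to -0.20 (limma adjusted p from 0.355 to 0.673). The receptor and coreceptor list (7 of 8 genes tested, with Chl1 below the brightness limit) had 0 genes past the threshold in either direction and a median of -0.13. The median was -0.07 without D34 and -0.14 without the library labelled Case D52. L1cam, an adhesion protein that joins Nrp1 in Sema3a signalling, differed by -0.28, by -0.09 without D34 and by -0.36 without the library labelled Case D52.

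The rest of the pathway held 0 genes past the threshold in any list, so the genes named are those with the smallest unadjusted p in each. Sema3g, the remaining class 3 ligand, differed by -0.23 log2 (limma adjusted p = 0.803). D34 decided this value, which was -0.06 without that pup and -0.26 without the library labelled Case D52. Semaphorins of classes 4 to 7, mostly bound to membranes (13 of 13 tested), had a median of 0.04, 7 of them above 0 and 6 below, with Sema5b at -0.14 and Sema5a at -0.15. Other plexins (4 of 4 tested) had a median of -0.02, with Plxnb3 at -0.30 and Plxnc1 at 0.13. Genes of plexin signalling (18 of 22 tested, with Farp2, Rnd1, Dpysl5 and Crmp1 below the brightness limit) had a median of 0.00. Among them Dpysl3, a collapsin response mediator of the cytoskeleton, differed by -0.47 with 8.58 in D34 and 9.73 to 10.17 in controls, and Mical1, an enzyme that disassembles actin filaments, by 0.14. Proprotein convertases, the proteases that cut and so tune class 3 semaphorins (4 of 4 tested), had a median of 0.03, with Pcsk5 at 0.20 and Pcsk7 at 0.03. VEGF ligands and receptors, which share the neuropilins (7 of 7 tested), had a median of -0.16, with Vegfa at -0.19 and Vegfb at -0.21. Without D34 the VEGF median was -0.06. Each of the named genes had a limma adjusted p from 0.786 to 0.917. Without the library labelled Case D52 Plxnc1 was at 0.22, Dpysl3 at -0.65, Mical1 at 0.19, Pcsk5 at 0.30, Pcsk7 at 0.05, Vegfa at -0.26, Vegfb at -0.22, Plxnb3 at -0.24, Sema5a at -0.18 and Sema5b at -0.19, with limma adjusted p from 0.306 to 0.825. Dpysl3 was at -0.19 and Pcsk7 at 0.07 without D34. The list medians without the library labelled Case D52 were 0.01 for classes 4 to 7, -0.05 for other plexins, 0.01 for plexin signalling, 0.04 for convertases and -0.17 for VEGF.

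The remaining marker lists are given as shifts from the control mean. Smooth muscle and myofibroblast markers (6 of 6 tested) shifted by -0.46, -0.75, -0.19 and -0.08 log2 in the 4 cases. Lymphatic markers (3 of 5 tested) shifted by -0.06, -0.49, -0.02 and -0.10, and nerve and Schwann cell markers (2 of 7 tested) by -0.07, -0.52, -0.27 and -0.09. The nerve and Schwann cell genes tested, Stmn2 and Sox10, differed from each other. They lay at -0.95 and -0.10 in D34, and at -0.10 and -0.44 in D48. Leukocyte markers (3 of 4 tested) shifted by -0.18, -0.34, -0.15 and 0.03. Type 2 cell markers (7 of 8 tested) shifted by -0.03, 0.05, -0.11 and -0.18, where controls ran from -0.05 to 0.09. Sums of these lists ran from 18199 to 18922 in controls and 10947 to 17535 in cases for smooth muscle, and from 4881 to 6271 and 3450 to 6016 for lymphatics. For nerve they were 967 to 1029 and 617 to 976, for leukocytes 895 to 1194 and 973 to 1178, and for type 2 cells 57154 to 62054 and 52193 to 60729. The lymphatic regulator Prox1, the nerve genes Tubb3 and Prph and the B cell gene Cd79a were below the brightness limit, and the lymphatic gene Ccl21a and the type 2 cell gene Lamp3 were not named in the annotation. Among all marker lists the 1 gene past the threshold was Abca3, with Dcn added when the library labelled Case D52 was dropped.

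The genes nearest to each of the other members over the 8 pups, found at its brightest probe set among 22132 probe sets, were as follows, with Pearson r as a measure of likeness. Sema3a was most like Nup54 (r = 0.991) and Cd302 (r = 0.988), and Sema3e most like Anapc11 (r = 0.992) and the caveolin gene Cav2 (r = 0.991). Plxna2 was most like Usp34 (r = 0.994) and Sema6d (r = 0.994), and Sema3b most like Atmin (r = 0.993) and Spon1 (r = 0.991). Much of this likeness lay in D34. Without D34 and the next most distant pup, r was 0.861 for Plxna2 with Sema6d and 0.655 for Sema3b with Atmin, but 0.951 for Sema3a with Nup54 and 0.958 for Sema3e with Cav2. Sema3c was nearest to Cdipt and Cpxm1, Sema3f to Arrdc1 and Epb41l2, Plxna1 to Tomm7 and Sem1, and Plxnd1 to Zfp276 and Tmem176a, with r from 0.961 to 0.987.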

How the data were processed

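Total lung RNA of 8 pups was hybridised to Affymetrix arrays, 1 per pup. The authors deposited linear-scale intensities for 45101 probe sets, and both tables deposited by the authors held the same intensities (largest difference 0). The authors' deposited log2 ratio equalled log2 of D04 over D02 at 45101 probe sets (tolerance 1e-06), and its values entered no fit. Results for pairings that join D02 with D04, as this ratio does, are also given below. The submitters' processing notes name affy, and the sources used here do not give the summary or normalization.

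The log2 of the deposited intensity was used unscaled. Control probe sets (64) and those below the 40th percentile of the mean (log2 6.51) were left out, and each remaining probe set was its own row. Of the probe sets, 34945 had 1 gene symbol, 932 several and 9160 none. Cases were set against controls in limma 3.58.1 (lmFit, eBayes; R 4.3.3), Benjamini-Hochberg adjusted over 27022 probe sets at 0.05, and Fgf18 by an exact permutation test. The limma p-values set the group difference against the spread between pups, moderated over all tested probe sets. The main fit treats pups as independent, although the design text describes pairs of littermates. The fit was tested on simulated data. The members and lists were chosen with earlier results of these data known. A list's genes were read at their brightest tested probe set, and genes outside the members were named if past the threshold (up to 4 per list), or else as the 2 with the smallest p. Alternatives changed the filter, normalization, moderation, rows tested, a sex covariate and litter blocks, and left out pups. Python 3.11.15 prepared the tables.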

Additional observations from a re-analysis of the deposited data

Results flagged for a closer look

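Each of the 22 tested member probe sets was checked by Dixon's test in the control group and in the case group. In 5 of these groups of 4 pups, 1 pup lay far from the others. The nominal rate of the test is about 1 of 20 groups. Case D34 was the lowest for Sema3b at 1448415_a_at (7.36) and for Sema3e at 1419717_at (9.44), and the highest for Plxna2 at 1453286_at (9.36) and at 1455037_at (8.30). These are 4 of 22 members (18.2%), and the same test picked out D34 in 3.18% of all tested probe sets. The library labelled Case D52 was the highest for Sema3f at 1420508_at (8.80), in a group with an SD of 0.03. It was picked out in 0.781% of all tested probe sets. Among controls, D40 was the highest for Fgf18 (7.76).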

How the results depend on the processing

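None of the 22 member probe sets passed the threshold under any alternative with the exception of Sema3d without D34 and D52 (log2 difference -0.68, limma adjusted p = 0.0414, 1 member called), an alternative chosen after seeing the data. Over all 27022 probe sets 2 passed, and this count was 1 with 1 probe set per gene, 4 with a sex covariate, 28 without D34 and D52, and 0 to 15 when 1 pup was left out (0 without D02, D40, D58, D04 or D48, and 15 without D52). Fgf18 ranged from 2.18 to 3.66 log2 when 1 pup was left out, with exact p = 0.0286 without D52. D52 had been set aside because of its low Fgf18, and the remaining cases all lay above the highest control. That choice settled the outcome of the test beforehand, so no conclusion is drawn from it. With pairs as a replicate block the count over all probe sets was 0 to 3 over the 24 possible pairings, and likewise over the 6 in which D02 pairs with D04, and no member was called. Medians of the 7 pathway lists moved by less than the median SD of the list's genes between controls. Marker lists were run only without D52, where the club and ciliated median went from -0.33 to -0.39 and the heart and skeletal muscle median from -0.63 to -0.91. Of 422 member values under alternatives, 404 kept direction and side of the threshold and 17 turned direction, all in differences of 0.11 or less over all pups. These were Sema3f at 1438947_x_at (0.02 with median centring, -0.07 to 0.02 with 1 pup left out) and at 1425840_a_at (-0.20 to 0.02), Plxna1 at 1428623_at (0.01 with a sex covariate, 0.15 without D34 and D52, -0.19 to 0.07), Plxna2 at 1455037_at (-0.06 without D34 and D52, -0.06 to 0.19) and at 1429772_at (-0.02 with a sex covariate, -0.07 without D34 and D52, -0.11 to 0.15) and Plxnd1 (0.04 with median centring, 0.00 with a sex covariate, 0.03 without D34 and D52, -0.05 to 0.04). The cause was not tested. With 4 pups a group, signal near the brightness limit bounds what Sema3d can show.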
